A study of Mus musculus with 7 samples.

Results

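The insulin-like growth factor (IGF) genes of tibialis anterior (TA) muscle were examined here: the ligands Igf1 and Igf2, the receptors Igf1r and Igf2r, and the binding proteins Igfbp3, Igfbp4, Igfbp5, Igfbp6 and Igfbp7. They are 9 of the 12239 genes in the expression table, taken by symbol. The genes were chosen with the comparison of C2-/- and WT muscle already known, Igfbp7 for the position of WT replicate 4 in particular. Their differences between the groups are therefore a description: no p is given for them, and a call past the threshold used for all genes only describes the size of a difference against its SE. Igfbp1 and Igfbp2 were not analysed here.

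RNA from TA, a fast-twitch muscle at the front of the shin, was sequenced after selection of messenger RNA on oligo(dT) beads. The 4 WT and 3 C2-/- libraries came from male mice of FVBN background, all 5 to 6 months of age. The C2-/- mice were homozygous for a disrupted Mybpc2, the gene of fast myosin-binding protein C. In the disrupted allele a Neo cassette with a LoxP site at either end stands in place of exons 2 to 22. The allele is present in every tissue and throughout life, so the libraries show long-standing absence of the protein, and the labels do not say whether the WT mice were littermates.

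IGF1 and IGF2 are secreted peptides that signal through the tyrosine kinase IGF1R, and in muscle this signal promotes protein synthesis, satellite cell proliferation and growth of the fibres. IGF2R, the cation-independent mannose 6-phosphate receptor, carries IGF2 and lysosomal enzymes to the lysosome and does not signal as a kinase. The binding proteins hold IGFs outside the cell, prolong their life or keep them from the receptor, and release them when cut by proteases.

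Levels are log2 CPM, that is the log2 of a gene's counts per 1e6 reads after TMM scaling. A log2 change is the C2-/- mean less the WT mean, printed with its standard error (SE) from the limma fit. The libraries held between 2613277 and 15464499 reads in the table, with WT replicates 1 to 3 the deepest and WT replicate 4 within the range of the C2-/- libraries. C2-/- replicate 2 had 1030 genes at 0 reads, against 247 in C2-/- replicate 1 at a like depth (2613277 and 2747651 reads). There were 404 such genes in C2-/- replicate 3, 75 in WT replicate 4 and 1 to 3 in the other WT libraries. Mybpc2 was 12.41 to 12.85 in WT and -0.47 to 1.67 in C2-/-, from 3 to 8 reads, a log2 change of -11.82 (SE 0.41, adjusted p = 4.85e-07 by limma), so that each library carried the level of its label. The log2 changes of the whole table followed the GC content of the transcripts, from a median of 1.12 in the decile of lowest GC content to -1.73 in the decile of highest. For that reason the change of each of the 9 genes is also given with GC-corrected values, in which the curve of log2 level on GC content was made equal in all libraries. Depth and genotype can be told apart in these 7 libraries only through WT replicate 4. The GC trend and genotype cannot be told apart, so the correction can also take away or add a difference of genotype. In Igf1 it moved WT replicate 1 from 2.90 to 3.53 and WT replicate 4 from 4.97 to 5.24. It moved C2-/- replicate 1 the other way, from 5.31 to 4.67.

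The threshold was a limma adjusted p under 0.05, over all genes, together with a change of more than 1.5-fold. Of the 9 IGF genes, 6 were past it, 3 higher in C2-/- (Igf1, Igf1r and Igfbp7) and 3 lower (Igfbp4, Igfbp5 and Igfbp6). Over all genes 45.2% were past it, 20.2% higher and 25.0% lower, and nothing is read from the members' count because the members were chosen on this contrast. In 5 of the 9 genes (Igf1, Igf1r, Igf2r, Igfbp5 and Igfbp6) the C2-/- values did not overlap the WT values, as in 49.3% of all genes. With GC-corrected values 4 of the 9 were past the threshold, Igf2, Igf1r and Igfbp7 as higher and Igfbp5 as lower, beside 20.6% of all genes. Igf1r, Igfbp5 and Igfbp7 were thus the 3 genes past it in the same direction with and without the correction. The median log2 change was 0.20 over the 9 genes and -0.14 over all genes. The changes lay on either side of 0 within the binding proteins and within the receptors.

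**Figure D1:**
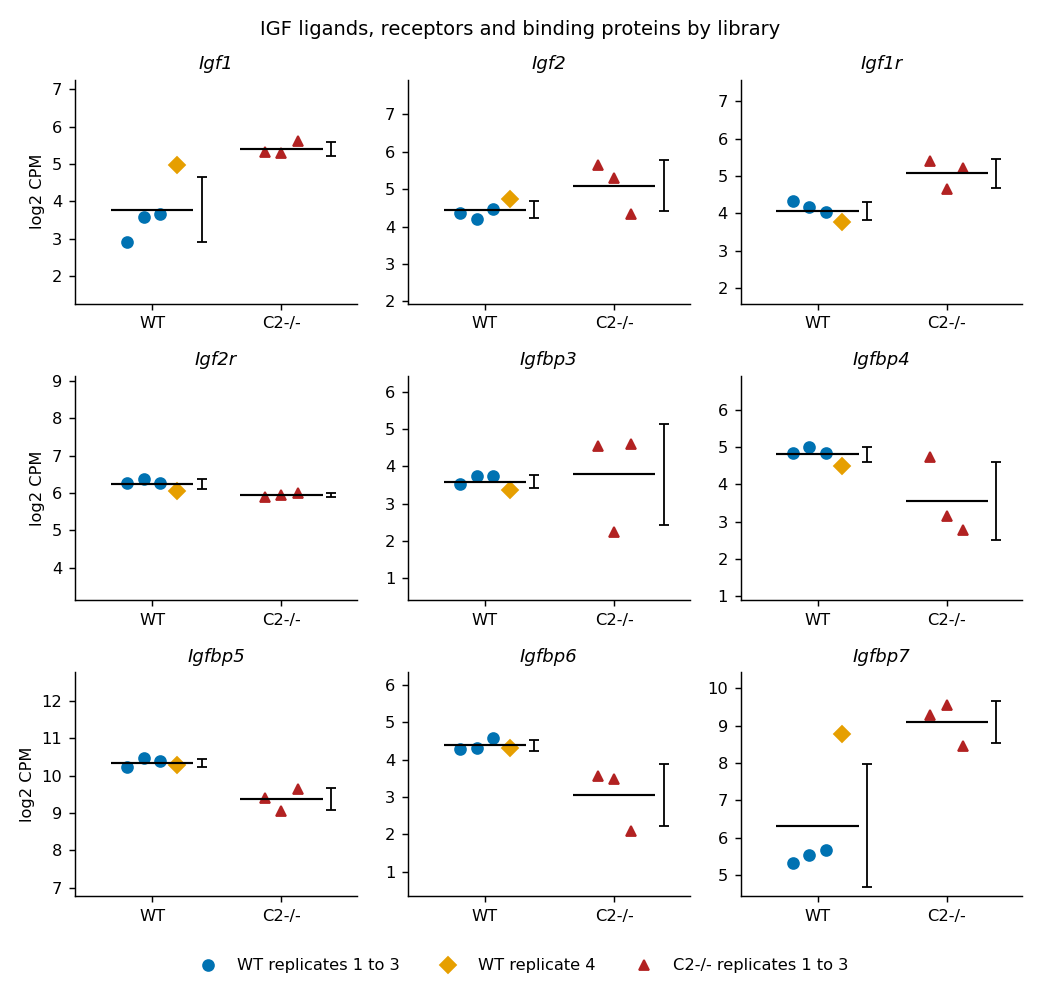
Level of each IGF gene (log2 CPM, vertical axis, the same span in every panel) in WT replicates 1 to 3 (circles), WT replicate 4 (diamond) and the 3 C2-/- libraries (triangles), with the mean (line) and SD (bar) of each group. WT replicate 4 sits with the C2-/- libraries in Igfbp7 and nearer to them than to the other WT libraries in Igf1, whereas in Igfbp5 and Igfbp6 it sits with WT in these values, which are not GC-corrected.

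Igf1 encodes the ligand through which growth hormone acts on muscle, and it is made by muscle fibres as well as by liver. It lies on the plus strand of chromosome 10 (chr10:87858265-87937042, GRCm38). The log2 levels of Igf1 were 2.90, 3.59, 3.66 and 4.97 in WT replicates 1 to 4, and 5.31, 5.28 and 5.61 in C2-/- replicates 1 to 3. The groups did not overlap, but WT replicate 4 stood above its own group and 0.43 below the C2-/- mean. The means were 3.78 ± 0.86 (SD, n = 4) in WT and 5.40 ± 0.19 (SD, n = 3) in C2-/-, a log2 change of 1.62 (SE 0.41) or 3.07-fold. Without WT replicate 4 it was 2.02 (SE 0.26). These levels rest on 103 to 236 reads per library.

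The Igf1 transcript has a GC content of 38.0%, and only 1.43% of the genes lie lower. With GC-corrected values the change was 0.32 (SE 0.36) and was not past the threshold, with C2-/- libraries at 4.67, 4.47 and 4.84 against 3.53, 4.20, 4.38 and 5.24 in WT. The groups then overlapped, since WT replicate 4 stood above all 3 C2-/- libraries. Igf1 was therefore past the threshold without the correction and not with it.

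Igf2 encodes the fetal growth factor, an imprinted gene expressed from the paternal allele. The gene is on the minus strand of chromosome 7 (chr7:142650766-142666816), 72.6 kb from the imprinted long noncoding RNA gene H19 and 98.1 Mb from Mybpc2 on the same chromosome. In WT replicates 1 to 4 Igf2 was 4.35, 4.21, 4.48 and 4.75 on the log2 scale, and in C2-/- replicates 1 to 3 it was 5.65, 5.30 and 4.33. In C2-/- replicates 1 and 2 the level was above every WT library, while C2-/- replicate 3 was among the WT libraries. The means were 4.45 ± 0.23 (SD, n = 4) and 5.09 ± 0.68 (SD, n = 3), and the log2 change of 0.65 (SE 0.31) was not past the threshold. Leaving out C2-/- replicate 3 brought it past the threshold at 1.03 (SE 0.24), and leaving out C2-/- replicate 1 gave 0.37.

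The GC content of the Igf2 transcript is 55.8%, and with GC-corrected values the change was 1.80 (SE 0.33), past the threshold. The corrected levels in C2-/- were 6.01, 6.24 and 5.02, all above the WT range of 3.65 to 4.54. Igf2 was thus higher in C2-/- after the correction and overlapped without it. The exons of Igf2 overlap those of the antisense gene Igf2os and of Gm49394 on the same strand. Whether the counting used strand is not given in the sources used here, and reads from Igf2 and Igf2os cannot be told apart without it. H19, whose RNA is made from the maternal allele, was 8.10 ± 0.59 (SD, n = 4) in WT and 7.86 ± 0.70 (SD, n = 3) in C2-/-, a log2 change of -0.24 (SE 0.36) with a limma adjusted p of 0.611, which turned to 0.92 (limma adjusted p = 0.0956) with GC-corrected values.

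Igf1r, on the plus strand of chromosome 7 (chr7:67952827-68233668) and 23.4 Mb from Mybpc2, encodes the tyrosine kinase receptor of both ligands. Its log2 levels were 4.33, 4.17, 4.03 and 3.76 in WT replicates 1 to 4, and 5.39, 4.64 and 5.20 in C2-/- replicates 1 to 3. Every C2-/- library was above every WT library, and WT replicate 4 was the lowest of all 7. The means were 4.07 ± 0.24 (SD, n = 4) and 5.07 ± 0.39 (SD, n = 3), a log2 change of 1.0 (SE 0.26) or 2.00-fold. The change was 0.90 without WT replicate 4, 1.08 with GC-corrected values and 1.32 against WT replicate 4 alone. Igf1r was past the threshold in all 10 other fits and in all 7 fits that left out a library. It rests on 59 to 307 reads per library.

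Igf2r, on the minus strand of chromosome 17 (chr17:12682406-12769664), is spread over 48 exons in its longest coding transcript. Log2 levels of Igf2r were 6.27, 6.38, 6.26 and 6.06 in WT replicates 1 to 4, and 5.88, 5.94 and 6.00 in C2-/- replicates 1 to 3. The groups did not overlap, yet the gap between the lowest WT library, replicate 4, and the highest C2-/- library was small. The means were 6.24 ± 0.13 (SD, n = 4) and 5.94 ± 0.06 (SD, n = 3). The log2 change of -0.30 (SE 0.16) was not past the threshold and turned to 0.07 (SE 0.15) with GC-corrected values. Airn, a noncoding RNA that crosses Igf2r on the opposite strand and is known for silencing its paternal allele, had 2.43, 2.35, 1.83 and 2.97 in WT and 3.69, 5.25 and 4.27 in C2-/-. Airn rose by 2.01 (SE 0.43, adjusted p = 0.00459 by limma), and it remained past the threshold with GC-corrected values (1.66). No annotated exon of Airn overlaps one of Igf2r.

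Igfbp7 encodes a secreted protein that binds IGFs weakly compared with the other family members, binds the extracellular matrix, and is made largely by vascular cells. The gene is on the minus strand of chromosome 5 (chr5:77349240-77408041). The log2 level of Igfbp7 was 5.31, 5.54 and 5.67 in WT replicates 1 to 3, against 8.77 in WT replicate 4, and 9.29, 9.54 and 8.46 in C2-/- replicates 1 to 3. WT replicate 4 stood within the range of the C2-/- libraries, above C2-/- replicate 3, and far from the other 3 WT libraries, which were close together. In reads, this was 606, 694 and 784 in WT replicates 1 to 3, against 1912 in WT replicate 4, and 1816, 1983 and 1705 in C2-/-. The shallower libraries thus held more reads of Igfbp7 than the deep ones.

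The Igfbp7 means were 6.32 ± 1.64 (SD, n = 4) in WT and 9.10 ± 0.56 (SD, n = 3) in C2-/-, a log2 change of 2.78 (SE 0.72) or 6.85-fold. Without WT replicate 4 the change was 3.59 (SE 0.26), whereas against WT replicate 4 alone it was 0.33. Without the GC correction, the difference between the groups in Igfbp7 thus came from WT replicates 1 to 3. With GC-corrected values the levels were 4.56, 4.77, 4.82 and 8.47 in WT and 9.81, 10.79 and 9.35 in C2-/-, a change of 4.33 (SE 0.83). The groups no longer overlapped, with the C2-/- mean 1.52 above WT replicate 4.

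WT replicate 4 differed from the mean of WT replicates 1 to 3 by 3.26 in Igfbp7, against a median of -0.19 over all genes. Igfbp7 ranked 56 among the 12239 genes by this difference, and 53 genes exceeded all 3 other WT libraries by more than 3 in WT replicate 4. By the difference of the C2-/- mean from WT replicates 1 to 3 it ranked 32. The 5 genes whose pattern over the 7 libraries was closest to that of Igfbp7, of 7815 with a mean log2 level of at least 3, were Cox17, Hmgn5, Cmc4, Ppig and 1810022K09Rik. Their root-mean-square differences from Igfbp7, after centring each gene on its mean, were 0.25 to 0.34 on the log2 scale. Cox17, a copper chaperone of cytochrome c oxidase, lay between 4.88 and 4.97 in the deep WT libraries, at 8.32 in WT replicate 4 and between 8.44 and 8.72 in C2-/-. The GC content of the 5 transcripts was between 37.8% and 47.9%, below the 58.8% of Igfbp7.

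The 3′ end of Igfbp7 overlaps the 3′ end of Polr2b, a subunit gene of RNA polymerase II on the opposite strand, over 85 exonic bases. Polr2b was 6.18, 6.13, 6.10 and 8.24 in WT replicates 1 to 4, and 8.89, 9.13 and 8.05 in C2-/- replicates 1 to 3, with WT replicate 4 among the C2-/- libraries as in Igfbp7. Polr2b rose by 2.03 (SE 0.49, adjusted p = 0.00839 by limma), by 1.62 with GC-corrected values (adjusted p = 0.0381 by limma), and WT replicate 4 was 2.10 above the mean of the other WT libraries. Without the strand of counting, reads from the shared bases cannot be assigned to either gene, and the part of this overlap in the Igfbp7 values was not tested.

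Igfbp5 encodes a binding protein of muscle cells that is induced when myoblasts differentiate. The gene is on the minus strand of chromosome 1 (chr1:72857932-72874884). Igfbp5 levels were 10.22, 10.47, 10.38 and 10.29 on the log2 scale in WT replicates 1 to 4, and 9.40, 9.06 and 9.64 in C2-/- replicates 1 to 3. All C2-/- libraries were below all WT libraries, and WT replicate 4 was within the range of the other WT libraries. The means were 10.34 ± 0.11 (SD, n = 4) and 9.37 ± 0.30 (SD, n = 3), a log2 change of -0.97 (SE 0.18), which is 1.96-fold lower in C2-/-. It was -0.99 without WT replicate 4, -0.92 against WT replicate 4 alone and -0.75 (SE 0.16) with GC-corrected values. Igfbp5 was past the threshold in each of the 10 other fits and of the 7 that left out a library, and with 1421 reads or more in every library it is the best counted of the 9 genes.

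The promoters of Igfbp7, Igfbp5 and Igf1r are shown because these 3 genes were past the threshold with and without the GC correction. Each is the 250 bases before the RefSeq start of the gene on GRCm38.p6, on the strand of the gene, with CG dinucleotides in capitals. They are chr5:77408046-77408295 on the minus strand for Igfbp7, chr1:72874866-72875115 on the minus strand for Igfbp5 and chr7:67952007-67952256 on the plus strand for Igf1r.
Igfbp7: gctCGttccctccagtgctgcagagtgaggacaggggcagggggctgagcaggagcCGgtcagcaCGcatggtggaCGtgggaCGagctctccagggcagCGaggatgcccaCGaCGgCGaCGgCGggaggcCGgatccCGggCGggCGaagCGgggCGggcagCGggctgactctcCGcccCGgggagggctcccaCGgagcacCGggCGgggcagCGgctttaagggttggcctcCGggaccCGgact
Igfbp5: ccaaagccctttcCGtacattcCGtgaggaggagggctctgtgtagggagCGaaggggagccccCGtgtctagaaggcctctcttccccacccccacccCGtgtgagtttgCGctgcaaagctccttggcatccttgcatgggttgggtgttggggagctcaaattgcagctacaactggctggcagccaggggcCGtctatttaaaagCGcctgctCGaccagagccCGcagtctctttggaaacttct
Igf1r: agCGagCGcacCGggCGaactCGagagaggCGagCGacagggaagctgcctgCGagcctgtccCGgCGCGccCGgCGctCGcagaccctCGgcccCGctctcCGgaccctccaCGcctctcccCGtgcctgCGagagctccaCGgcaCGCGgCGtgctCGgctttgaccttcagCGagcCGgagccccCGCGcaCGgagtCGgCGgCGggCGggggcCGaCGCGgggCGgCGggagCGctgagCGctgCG
The Igfbp7 promoter holds 26 CG dinucleotides at a GC content of 74.0%, that of Igfbp5 10 at 58.8% and that of Igf1r 42 at 77.6%. Among the 32851 promoters of the RefSeq set used the median is 6, 92.1% hold at least 1, and 9.59%, 37.8% and 0.865% hold at least as many as Igfbp7, Igfbp5 and Igf1r. That set is not the expression table and can hold several promoters of a gene. These counts describe 3 sequences. RefSeq promoters were matched for all 9 genes.

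Igfbp6 encodes the binding protein with a preference for IGF2. It lies on the plus strand of chromosome 15 (chr15:102144362-102149511). The log2 levels of Igfbp6 were 4.29, 4.31, 4.58 and 4.32 in WT replicates 1 to 4, and 3.57, 3.47 and 2.09 in C2-/- replicates 1 to 3. All C2-/- libraries were below WT, C2-/- replicate 3 the most, and WT replicate 4 stood with its group. The means were 4.38 ± 0.14 (SD, n = 4) and 3.04 ± 0.83 (SD, n = 3), a log2 change of -1.34 (SE 0.37) or 2.53-fold lower, and -0.86 without C2-/- replicate 3. The C2-/- levels rest on 20 to 34 reads. The Igfbp6 transcript has the highest GC content of the 9, 60.7%, and with GC-corrected values the change turned to 0.41 (SE 0.40), not past the threshold.

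Igfbp4 encodes a binding protein that inhibits IGF action until the protease PAPP-A cuts it. It lies on the plus strand of chromosome 11 (chr11:99041244-99054392). For Igfbp4 the log2 levels were 4.84, 5.01, 4.83 and 4.50 in WT replicates 1 to 4, and 4.74, 3.14 and 2.79 in C2-/- replicates 1 to 3. C2-/- replicate 1 lay among the WT libraries, and C2-/- replicates 2 and 3, with 23 and 33 reads, lay below all of them. The means were 4.80 ± 0.21 (SD, n = 4) and 3.56 ± 1.04 (SD, n = 3), a log2 change of -1.24 (SE 0.42) or 2.36-fold lower. This change was past the threshold in 6 of the 10 other fits and in 2 of the 7 that left out a library, those without WT replicate 4 (-1.34) and without C2-/- replicate 1 (-1.83). It was not past it without WT replicates 1, 2 or 3 (-1.23, -1.17 and -1.23) or without C2-/- replicates 2 or 3 (-1.03 and -0.86), nor with GC-corrected values (-0.21, SE 0.35).

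Igfbp3 encodes the main carrier of IGFs in serum. It lies on the minus strand of chromosome 11 (chr11:7206086-7213923). Its log2 levels were 3.52, 3.73, 3.74 and 3.37 in WT replicates 1 to 4, and 4.54, 2.23 and 4.60 in C2-/- replicates 1 to 3. C2-/- replicates 1 and 3 were above all WT libraries and C2-/- replicate 2, with 12 reads, was below all of them. The means were 3.59 ± 0.18 (SD, n = 4) and 3.79 ± 1.35 (SD, n = 3), and the log2 change of 0.20 (SE 0.53) was not past the threshold. It was 0.98 (SE 0.24) and past the threshold without C2-/- replicate 2, and it turned to -0.18 and -0.21 without C2-/- replicates 1 and 3. With GC-corrected values it was 0.80 (SE 0.49), not past the threshold.

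**Figure D2:**
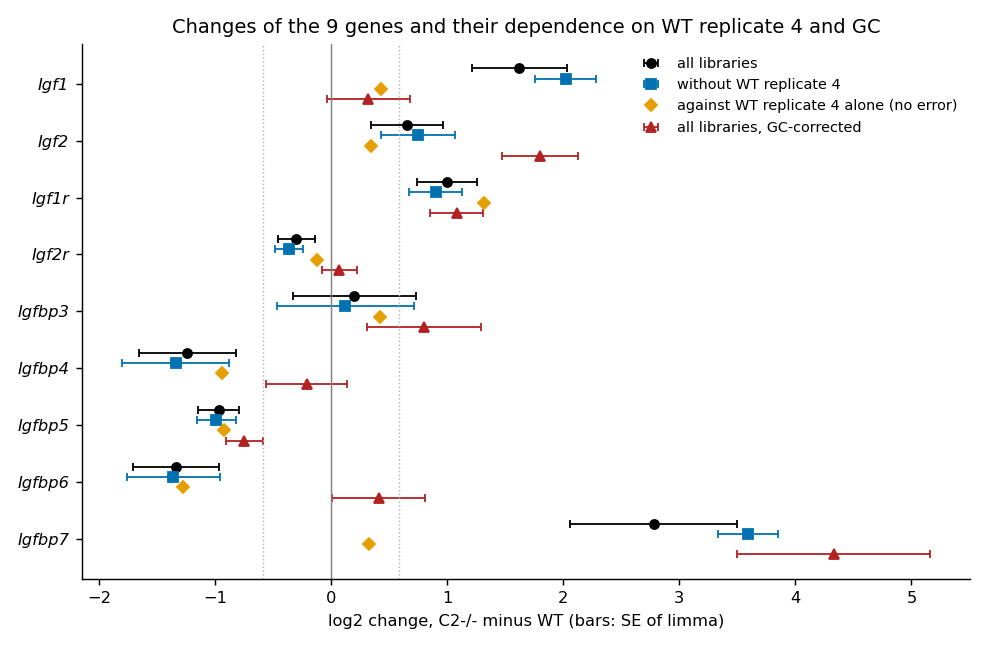
Log2 change of each IGF gene (horizontal axis, C2-/- minus WT, bars the SE of limma) with all libraries, without WT replicate 4, against WT replicate 4 alone, and with GC-corrected values. Dotted lines mark the fold minimum of 1.5. Igf1r and Igfbp5 stay beyond the dotted line of their side in all 4, Igfbp7 falls to 0.33 against WT replicate 4 alone, and Igfbp6 changes sign after the GC correction.

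In 4 of the 9 genes, Igf1, Igf2, Igf2r and Igfbp7, WT replicate 4 was closer to C2-/- than to WT replicates 1 to 3 (distance from the mean of each), as in 38.1% of all genes. With GC-corrected values this held for 3 genes, Igf1, Igfbp7 and Igfbp6, the last with WT replicate 4 at 3.99, the other WT libraries at 3.44 to 3.62 and C2-/- at 3.08 to 4.86. The share of all genes was not computed with these values, so nothing is read from this count. Without the correction, in Igf2 and Igfbp7 it was also within the range of the C2-/- libraries. In Igf1r, Igfbp3, Igfbp4, Igfbp5 and Igfbp6 it was closer to the other WT libraries. In the same library, without the correction, Igfbp7 was therefore at the level of C2-/- and Igfbp5 at that of WT. With it Igfbp7 in WT replicate 4 was 8.47, below all C2-/- libraries (9.35 to 10.79). WT replicate 4 held 4683853 reads and C2-/- replicate 3 held 4917936, and their Igfbp5 levels were 10.29 and 9.64.

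Compared with all genes of like GC content, Igfbp7 stood apart most. Its decile, the one of highest GC content, had a median log2 change of -1.73, and 2.78 was at the 99.8 percentile of that decile. Igf2 (93.5), Igf1r (87.3), Igfbp3 (80.8) and Igf1 (79.2) were in the upper part of their own deciles. Igfbp6 (64.8), Igf2r (51.5) and Igfbp4 (40.4) were nearer to the middle, and Igfbp5 (24.9) was in the lower part. These percentiles describe the contrast on which the genes were chosen.

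**Figure D3:**
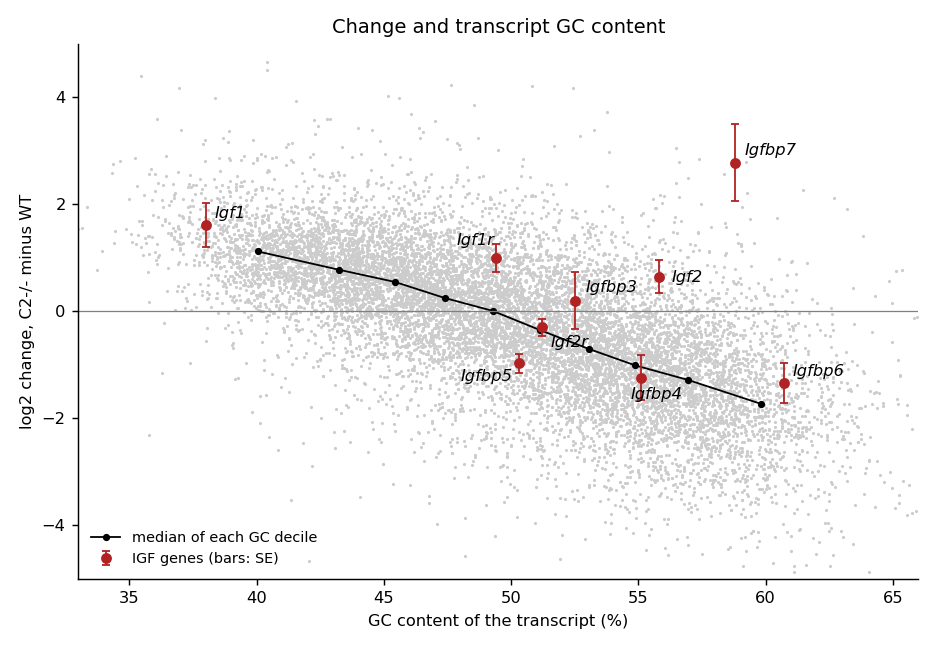
Log2 change (vertical axis, C2-/- minus WT) against the GC content of the transcript (horizontal axis, %) for 12143 genes (grey points, with 31 outside the axes), the median of each decile of GC content (black) and the IGF genes (red, bars the SE). The medians go down from 1.12 to -1.73, Igfbp7 lies far above them at 58.8% and 2.78, and Igf1, Igf2r, Igfbp4 and Igfbp6 lie nearer to them.

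Levels of different genes were compared per kb of transcript, as the log2 of CPM per kb. In WT the order was Igfbp5 (7.75 ± 0.11, SD, n = 4), Igfbp7 (6.06 ± 1.64), Igfbp6 (4.22 ± 0.14), Igf2r (3.09 ± 0.13), Igfbp4 (2.86 ± 0.21), Igfbp3 (2.32 ± 0.18), Igf2 (2.21 ± 0.23), Igf1 (0.96 ± 0.86) and Igf1r (0.56 ± 0.24). In every WT library Igfbp4, Igfbp5, Igfbp6 and Igfbp7 stood above both ligands and Igf1r, whereas Igfbp3 stood below Igf2 in WT replicate 4 (2.10 and 2.51). Neighbours were taken to differ beyond their spread where the difference had the same direction in all 4 WT libraries and its mean was above its SD. This was not so for Igfbp5 and Igfbp7, whose order was inverted in WT replicate 4 (difference -0.80), for Igfbp3 and Igf2, or for Igf1 and Igf1r. The other 5 neighbouring pairs differed beyond it. In C2-/- Igfbp7 (8.83 ± 0.56, SD, n = 3) stood above Igfbp5 (6.78 ± 0.30), and Igf1r (1.56 ± 0.39) and Igfbp4 (1.62 ± 1.04) had the lowest means, which lay within their spread. Igf1 was 2.58 ± 0.19 in C2-/-, and its place in the order there depended on the transcript length used.

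**Figure D4:**
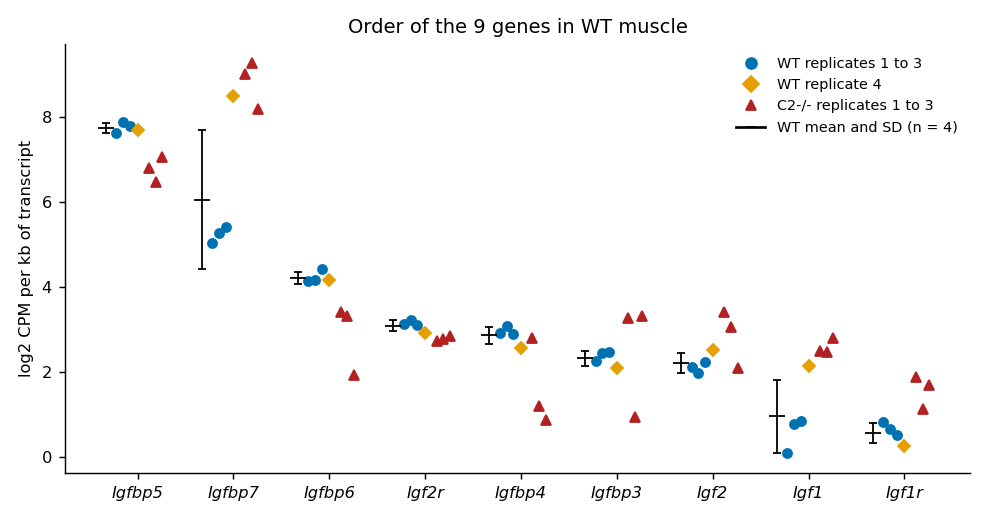
Level of each IGF gene per kb of transcript (vertical axis, log2 CPM per kb) in WT replicates 1 to 3 (circles), WT replicate 4 (diamonds) and C2-/- (triangles), ordered by the WT mean, which is drawn with its SD at the left of each gene. Igfbp5 leads in WT replicates 1 to 3, and Igfbp7 leads in WT replicate 4 and in C2-/-.

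Within the 5 binding proteins, Igfbp5 made up 76.0%, 77.0% and 74.2% of the summed CPM per kb in WT replicates 1 to 3, against 34.7% in WT replicate 4, and 17.0%, 12.3% and 30.1% in C2-/-. Igfbp7 made up 12.6%, 12.6% and 14.2% in WT replicates 1 to 3, against 60.6% in WT replicate 4, and 78.9%, 85.8% and 66.4% in C2-/-. The leading binding protein transcript was thus Igfbp5 in 3 libraries and Igfbp7 in the other 4, of which 1 was WT. Igfbp6 came to between 5.83% and 7.21% in the deep WT libraries, 2.98% in WT replicate 4 and 0.841% to 1.59% in C2-/-. The sum itself was 261, 306 and 299 CPM per kb in WT replicates 1 to 3, against 598 in WT replicate 4, and 660, 721 and 443 in C2-/-. The lower share of Igfbp5 in WT replicate 4 was with an Igfbp5 level in the range of the other WT libraries, so it followed from the Igfbp7 level there.

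**Figure D5:**
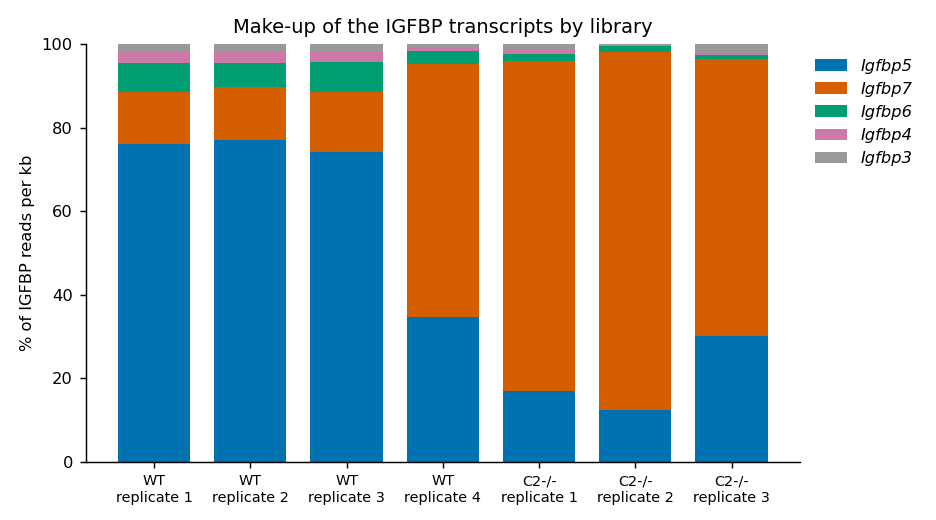
Share of each binding protein gene in the summed CPM per kb of the 5 (vertical axis, %), in each of the 7 libraries. Igfbp5 takes 74.2% to 77.0% in WT replicates 1 to 3 and 12.3% to 34.7% in WT replicate 4 and C2-/-, where Igfbp7 takes 60.6% to 85.8%.

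The other genes of the IGF axis were taken from lists of 46, of which 38 were in the table. Of these, 17 were past the threshold by limma, 8 higher and 9 lower in C2-/-, which is 44.7% beside 45.2% of all genes. The median log2 change of the 38 was -0.16, beside -0.14 over all genes. With GC-corrected values 8 were past it, 7 higher and 1 lower, beside 20.6% of all genes in either direction. The shares of all genes by direction were not computed with these values, so nothing is read from 7 against 1. The counts of the separate lists below are to be read beside the same shares of all genes, 45.2% past the threshold (20.2% higher, 25.0% lower) and 20.6% after the GC correction. None of the lists was tested against them.

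Below the receptors, 6 of 11 receptor kinase and adaptor genes were past the threshold, 3 in each direction. Irs1 encodes the docking protein that links IGF1R and the insulin receptor to PI3-kinase, and its log2 level was 6.40, 6.42, 6.28 and 6.08 in WT replicates 1 to 4, and 7.54, 7.52 and 8.20 in C2-/- replicates 1 to 3. It rose by 1.46 (SE 0.20, limma adjusted p = 0.000666) and by 1.69 with GC-corrected values, with WT replicate 4 the lowest library, as in Igf1r. Its relative Irs2 fell by 2.05 (SE 0.63, limma adjusted p = 0.0235), from 2.64 to 3.12 in WT to -0.83 to 1.86 in C2-/-, where it had 1 to 17 reads. Nedd4, a ubiquitin ligase that acts on IGF1R through GRB10, rose by 1.08 (SE 0.23, limma adjusted p = 0.00443), and Sos1, a RAS exchange factor, rose by 1.11 (SE 0.23, limma adjusted p = 0.00426). Shc1 fell by 1.16 (SE 0.29, limma adjusted p = 0.00948), and Ptpn11, the gene of the phosphatase SHP2, fell by 1.11 (SE 0.22, limma adjusted p = 0.00303). After the GC correction Irs1, Nedd4 (0.66) and Ptpn11 (-0.63) remained past the threshold, and Irs2 (-0.78), Sos1 (0.13) and Shc1 (-0.44) did not. Grb2 and Gab1, adaptors named after their values were seen, came past it with the correction, from 0.16 to 0.65 (limma adjusted p = 0.0137) and from 0.47 to 1.0 (limma adjusted p = 0.016). The insulin receptor gene Insr was 6.33 ± 0.08 (SD, n = 4) in WT and 6.87 ± 0.08 (SD, n = 3) in C2-/-, without overlap, but its log2 change of 0.54 (SE 0.15, limma adjusted p = 0.0138) was under the fold minimum, and it was 0.24 with GC-corrected values.

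Upstream of Igf1, 3 of 7 growth hormone axis genes were past the threshold. This count depended on WT replicate 4. Without it Jak2 (0.82, limma adjusted p = 0.017), Stat5a (-1.25, limma adjusted p = 0.0129) and Socs3 (-2.49, limma adjusted p = 0.036) were past the threshold as well. They were named after their values were seen, and none was past it with GC-corrected values. Ghr, the growth hormone receptor, rose by 0.66 (SE 0.16, limma adjusted p = 0.0087), and Stat5b, the transcription factor through which it induces Igf1, fell by 1.26 (SE 0.28, limma adjusted p = 0.00555). Cish, a feedback inhibitor induced by STAT5 and named here after its values were seen, fell by 1.26 (SE 0.40, limma adjusted p = 0.0276), with C2-/- values that overlapped WT. Socs2, another feedback inhibitor induced by STAT5 and also named after its values were seen, had a C2-/- mean that differed by -0.16 (SE 0.39, adjusted p = 0.755 by limma) and was not past the threshold. In Ghr, Stat5b and Cish WT replicate 4 was displaced from the other WT libraries towards C2-/-, as in Igf1. None of the 3 was past the threshold with GC-corrected values, where the change of Ghr turned to -0.33, that of Stat5b was -0.62 and that of Cish was -0.03.

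Among 5 genes of proteases that cut binding proteins and of stanniocalcins that inhibit them, 2 fell. Ctsd, the gene of the lysosomal protease cathepsin D, fell by 1.75 (SE 0.17, limma adjusted p = 0.000231), and Htra1, named after its values were seen, by 1.03 (SE 0.37, limma adjusted p = 0.0434). Neither was past the threshold with GC-corrected values, where the change of Ctsd was -0.58 and that of Htra1 turned to 0.18. Pappa, the gene of the protease that cuts IGFBP4, had -1.24, -1.44, -1.77 and 2.22 in WT replicates 1 to 4, and 0.27, 1.04 and 1.25 in C2-/- replicates 1 to 3, from at most 20 reads. Its log2 change of 1.41 (SE 0.98, limma adjusted p = 0.255) was not past the threshold, and it was without WT replicate 4 (2.34, limma adjusted p = 0.0207). With GC-corrected values it was 1.01.

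Of the 6 genes on IGF2 messenger RNA and imprinting, 3 rose past the limma threshold, and the same 3 did so with GC-corrected values. Beside Airn these were Plagl1, an imprinted zinc-finger gene whose product activates the Igf2 and H19 locus (3.25, SE 0.51, limma adjusted p = 0.00119), and Igf2bp2, whose product binds Igf2 messenger RNA (2.09, SE 0.53, limma adjusted p = 0.0104). Both were named after their values were seen and rest on few reads, 3 to 36 for Plagl1 and 4 to 15 for Igf2bp2. Among 8 genes of mannose 6-phosphate sorting, the pathway that IGF2R serves at the Golgi, 3 were past the threshold. Without WT replicate 4, Gga2 (-1.31, limma adjusted p = 0.029) and Gnptab (0.98, limma adjusted p = 0.00156) were past it as well, both named after their values were seen. Neither was past it with GC-corrected values. Gga1 fell by 1.89 (SE 0.23, limma adjusted p = 0.000402) and Nagpa by 1.88 (SE 0.52, limma adjusted p = 0.0149), whereas Vps35, the gene of a retromer subunit that returns the receptor to the Golgi, rose by 1.03 (SE 0.23, limma adjusted p = 0.00579). None of the 3 was past it with GC-corrected values (-0.01, -0.16 and 0.19). Igfals, which stabilises IGF complexes in serum, was the only other IGF family gene in the table and had at most 29 reads (log2 change -0.97, SE 0.86, limma adjusted p = 0.366, and 0.59 with GC-corrected values).

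Markers of the cell types in TA were followed beside the IGF genes, since fewer cells of a type and less RNA per cell cannot be told apart in whole muscle. Beside each count of markers past the limma threshold stand the shares of all genes, 20.2% higher and 25.0% lower. With GC-corrected values the share was 20.6% in either direction, and shares by direction were not computed. The summed CPM of 10 muscle fibre genes was 212800 to 239500 in WT and 124300 to 139700 in C2-/-, with 6 of the 10 lower by the limma threshold, and 2 lower with GC-corrected values. The median log2 change of these 10 genes was -0.97, and 0.05 with the correction, and Igfbp5 had the same order of groups as the sum. The sum of 10 endothelial genes was 496 to 658 in the deep WT libraries, 452 in WT replicate 4 and 332 to 428 in C2-/-, with 1 higher and 5 lower. The median of the 10 endothelial changes was -0.81, and -0.05 with GC-corrected values, by which 1 gene was past the threshold, as lower. The endothelial sum was thus lower in the 4 libraries with high Igfbp7 than in the deep WT libraries, although within C2-/- the lowest sum was in replicate 3, which also had the lowest Igfbp7. Emcn, the endothelial gene past the threshold as higher, went the other way. It was 3.72 to 4.20 in the deep WT libraries, 5.36 in WT replicate 4 and 5.20 to 5.63 in C2-/-, and was named after its values were seen. The sum of 8 pericyte and smooth muscle genes was 669 to 705 in the deep WT libraries, 1042 in WT replicate 4 and 1368 to 1824 in C2-/-, the order of the Igfbp7 levels by group. Of these 8 genes 1 was higher and 1 lower, and 2 were higher after the GC correction. Their median log2 change was 0.0, and 0.42 with the correction.

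In that sum the gene with the highest level was Abcc9, a potassium channel subunit that muscle fibres also make, which lay between 8.36 and 8.50 in the deep WT libraries, at 9.62 in WT replicate 4 and between 10.12 and 10.43 in C2-/-. The defining markers Pdgfrb (4.95 in WT replicate 4, 5.78 to 5.92 in the other WT libraries and 4.85 to 5.32 in C2-/-) and Cspg4 did not have this order. Neither did Rgs5, Acta2, Myh11, Kcnj8 and Tagln, so that Abcc9 alone of the list had the order of the sum. The sum of 10 fibroblast and fibro-adipogenic genes was 919 to 1045 in WT and 1715 to 2041 in C2-/-, with 5 higher and 3 lower (3 higher after the GC correction), and WT replicate 4 was at 1045. Single genes of this list were not all like the sum. Col1a1 was 5.64 to 6.10 in the deep WT libraries, 7.05 in WT replicate 4 and 7.08 to 8.07 in C2-/-, and Gsn was 8.41 to 8.87, 7.63 and 6.94 to 7.49, so both placed WT replicate 4 towards C2-/-, as did Col3a1 and Clec3b (all 4 named after their values were seen). In Pdgfra, Dcn and Pi16 WT replicate 4 (3.85, 8.40 and 4.36) was nearer to the deep WT libraries. Those were at 3.58 to 4.02, 7.88 to 8.04 and 3.96 to 4.23, and C2-/- was at 4.31 to 4.95, 9.98 to 10.08 and 0.63 to 2.82. The macrophage sum was 61.4 to 86.2 in WT and 69.1 to 110 in C2-/-, with 2 of 9 genes higher (Cd163 and Mrc1) and 2 lower (C1qa and C1qc, both at 0 reads in some library). The satellite cell sum was 51.6 to 59.0 in the deep WT libraries, 25.5 in WT replicate 4 and 24.8 to 29.9 in C2-/-, with 1 of 5 genes higher (Myf5), 1 lower (Sdc4) and Pax7 at 0 reads in some library. The Schwann cell sum was 54.9 to 103 in the deep WT libraries, 124 in WT replicate 4 and 64.0 to 95.5 in C2-/-, with 1 of 5 genes lower (Mbp), and the sum of 3 adipocyte genes was at most 11.6 in any library. With GC-corrected values 1 macrophage gene was higher and 0 lower, and 0 satellite cell genes were higher and 1 lower. No Schwann cell gene was then past the threshold, and 1 adipocyte gene was higher. The single markers of these lists were named after their values were seen. The part of these cell types in the IGF values was not tested.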

How the data were processed

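After removing reads of low quality or with adaptor, the authors used HISAT for alignment to GRCm38.p6, featureCounts 1.5.2 for counts per gene and edgeR for TMM scaling. The deposited values are log2 CPM, with a column for each of 4 WT and 3 C2-/- libraries, although the design text of the series gives 4 mice per group. The filter on genes, multiply mapped reads and the strand of counting are not given in the sources used here. A second deposited table, of the authors' own limma comparison (log2 fold change, t, p-value and log-odds), was not used.

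Reads per gene were recovered, since each value was the log2 of a whole number plus 0.5 over a constant of the library. In every library 100.0% of the values came out whole within 0.01 reads. Depending on depth, 3 reads correspond to 0.195 to 1.12 CPM, a floor that covers counting error only. A change of a gene with few reads is understated or overstated by the 0.5. The labels number the replicates, and the column names add an identifier to each library whose meaning is not given, so SD and SE measure the spread between these libraries.

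The log2 values were fitted with limma 3.58.1 in R 4.3.3 (eBayes with trend, genotype as the only term, 7 libraries, two-sided, Benjamini-Hochberg over 12239 genes), after a check of the fit on simulated data. The threshold was an adjusted p under 0.05 and a fold above 1.5. For the GC correction a natural spline of 5 degrees of freedom on transcript GC content, matched for 12174 genes (99.5%), was replaced in each library by the mean curve. Positions, transcript lengths and GC content came from GENCODE M21, taking the longest coding transcript. The members and lists were chosen with earlier results of these data known. All 9 members were named. Of the other lists, genes were named that were past the threshold without overlap at a mean log2 level of at least 1, at most 12 by size of change, plus Insr, Irs1, Ghr, Pappa and H19. The alternatives were other scalings, filters, offsets and variance models, voom on the recovered reads, the GC correction, a replicate block and leaving out each library. No sign was seen that the replicate numbers pair the libraries.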

Additional observations from a re-analysis of the deposited data

Results flagged for a closer look

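Among 26 values examined in the 4 WT libraries, 6 had a WT library far from the other 3 by Dixon's criterion. That criterion marks about 1 in 20 groups by chance, but the genes were chosen with the position of WT replicate 4 or their group difference known, so the count is a description. In 5 of the 6 it was WT replicate 4. Igfbp7 was 8.77 in WT replicate 4 on the log2 scale and 5.31 to 5.67 in the other WT libraries. Pappa was 2.22 there against -1.77 to -1.24, and Ghr was 8.27 against 7.80 to 7.87, both in the direction of the C2-/- libraries. Stat5b was 7.26 in WT replicate 4 against 8.32 to 8.51, and Ptpn11 was 6.76 against 7.51 to 7.58, again towards C2-/-. For Igfbp6 it was WT replicate 3, at 4.58 against 4.29 to 4.32, away from the C2-/- libraries. No cause of these positions was tested.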

How the results depend on the processing

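The number of IGF genes past the threshold, 6, was 4 to 7 over the 11 other settings and 5 to 6 when a library was left out. The other genes of the IGF axis past it, 17, were 8 with the GC correction, 12 with the GC correction and without WT replicate 4 (chosen after seeing the data), 25 with library quality weights, and 14 to 24 when a library was left out, 24 being without WT replicate 4. With a replicate block the counts were 6 and 24. Numbers 1 to 3 occur in both groups, and the deviations of libraries with the same number had correlations of -0.06 to 0.05, which show no sign of pairing. The WT deviations were taken from a mean that holds WT replicate 4, so these correlations cannot settle whether the libraries were paired. The sign turned in Igf2r (0.07 with the GC correction, 0.05 with it and without WT replicate 4), in Igfbp6 (0.41 and 0.54) and in Igfbp3 (-0.18 without C2-/- replicate 1, -0.21 without C2-/- replicate 3, and 0.98 without C2-/- replicate 2), and the cause was not tested. The change of Mybpc2 was -11.96 to -10.78, and -12.26 to -11.19 when a library was left out. Igf1r, Igfbp5 and Igfbp7 were past the threshold in each of these fits, Igf1 in 8 of 10 other fits and Igfbp6 in 8 of 10. With the length of all annotated exons the order of the 9 genes in WT was the same, and Igf1 was at place 7 in C2-/- in place of 6. Without WT replicate 4, Igf1 was last in WT. Median centring moved the median of all genes from -0.14 to 0.02. WT replicate 4 was closer to C2-/- in 4 of the 9 genes, and in 3 with the GC correction or median centring (chosen after seeing the data). For the counts of 3 the share of all genes was not computed. Levels of 12 to 34 reads, as in C2-/- for Igfbp6, in 2 C2-/- libraries for Igfbp4 and in 1 for Igfbp3, limit what can be said of these genes.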
